A study of Mus musculus with 3 samples.

Results

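C-type lectins, Siglecs and paired immune receptors were examined in macrophages sorted from mouse kidneys. The members were the 56 genes, of 14811 in the deposited table, whose symbols belong to the Clec, Siglec, Cd33, Cd22, Cd300, Lilr, Pir, Sirp, Trem, Fcrl, Lair, Klr, Cd72 and Cd200r families. There was a single group of 3 C57BL6/J mice, each given phosphate-buffered saline (PBS) into a vein, with kidneys removed 1 h later. Macrophages were sorted from the digested organ by flow cytometry (FACS), and the labels give neither the age of the mice nor the sorting markers. No second condition was analysed here, so the comparison made is between receptor classes within each library: 20 members are activating, 17 inhibitory and 19 in neither class.

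Many of these receptors come in pairs or clusters of related genes whose members signal in opposite directions, though paired members need not share a ligand. Activating receptors carry almost no signalling tail of their own and borrow the immunoreceptor tyrosine-based activation motif (ITAM) of a small adaptor, Tyrobp or Fcer1g, which recruits the kinase Syk. A few lectins instead hold a single-tyrosine version of that motif, the hemITAM. Most inhibitory receptors carry the immunoreceptor tyrosine-based inhibition motif (ITIM), which recruits the phosphatases encoded by Ptpn6, Ptpn11 and Inpp5d. Cd200r1 was classed as inhibitory through Dok docking proteins instead. In myeloid cells the balance sets the threshold for responses to microbes, dying cells and antibodies. Classes were assigned from textbook knowledge of each receptor. Those whose sign is unclear in the mouse, such as Cd33 and Clec4a3, were put in neither class.

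Values run from mouse 1 to mouse 3 throughout, and the depth over all 14811 genes was 50951549, 56718534 and 50646558 reads. Levels are normalised reads, the deposited values less the 1 that the authors had added. Levels of different genes are ranked only per kb of exon, and class sums and pairs are given as reads as well where that differs. One read was worth 0.806, 0.555 and 0.705 normalised reads. All 8 macrophage markers were in the table, and 7 were at 1000 or more in every mouse, among them Adgre1 at 45042, 16550.1 and 24426 and C1qa at 59459, 38757 and 58214 normalised reads. Itgam was the exception at 1021, 446 and 5.64 normalised reads. The T cell markers summed to 167, 1.66 and 4.23 normalised reads, with Cd3e at 0 in every mouse. The kidney tubule markers, Kap among them, summed to 39728, 190716 and 15555 normalised reads, far higher in mouse 2 than in both other mice. Fewer cells of a type and less RNA per cell cannot be told apart in such bulk libraries.

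As a set the receptors were well represented. Together they took 1.10%, 0.938% and 1.21% of the reads. Of the 56 members, 29 were at 10 or more normalised reads in every mouse, against 44.4% of all listed genes. At 1000 or more in every mouse there were 21 members, or 37.5%, against 14.7% of all genes. At the other end, 11 members, or 19.6%, were at 0 in every mouse, against 6.59% of all genes. Above 0 in every mouse were 39 members, or 69.6%, against 71% of all genes. The median of the members' mean level was 167 normalised reads per kb, against 69.3 over the 14773 listed genes with an exon length. Just inside the minimum of 10 were Cd300lh, at 12.9, 12.2 and 24.7, and Clec10a, at 2659.7, 18.3 and 1637 normalised reads. Just outside it were Fcrl1, at 2417, 3579 and 9.87, and Cd300lf, at 2486, 4.44 and 761 normalised reads, both far above the minimum in other mice.

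**Figure D1:**
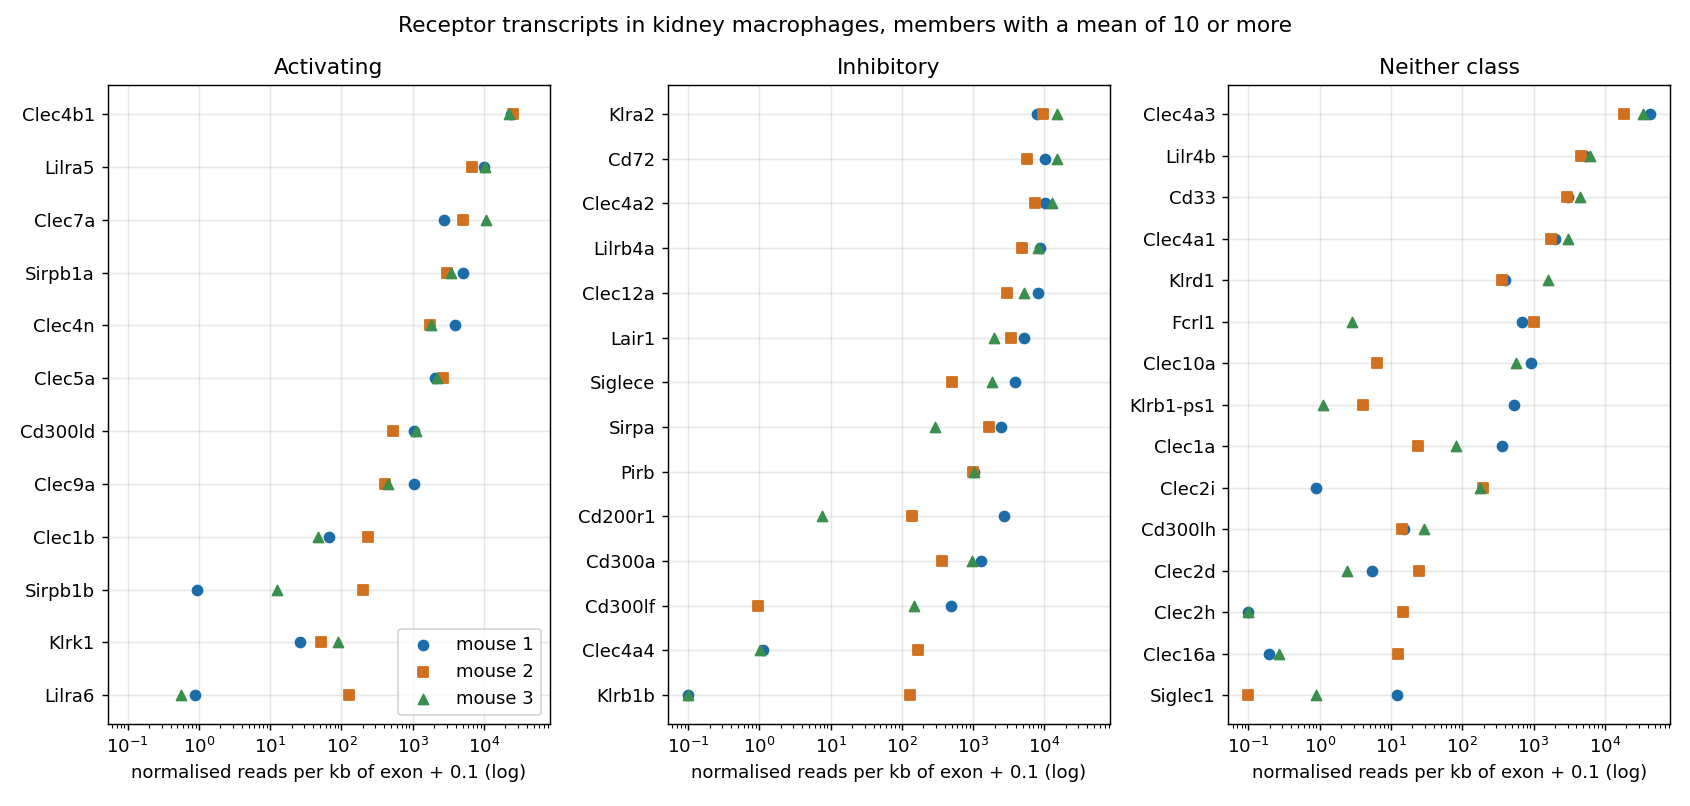
Normalised reads per kb of exon plus 0.1 on a log axis, for the members with a mean of 10 or more normalised reads, in 3 panels by class. Each point is 1 mouse. Clec4b1 leads the activating panel at 23581, 25626 and 22411 in mice 1, 2 and 3, and the points of Klra2, Cd72 and Clec4a2 overlap in the inhibitory panel.

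Among activating receptors, Clec4b1 was the most abundant per length. It encodes DCAR, a lectin that pairs with Fcer1g, and was at 23581, 25626 and 22411 normalised reads per kb, a mean of 23873 ± 1627 (SD, n = 3). The 3 mice differed by a factor of 1.14 at most. Its annotated exons span only 784 bases, so its level per kb would be lower if the real transcript were longer. Lilra5, an activating leukocyte immunoglobulin-like receptor that also uses Fcer1g, followed at 10126, 6717 and 10246 normalised reads per kb. Clec7a, the beta-glucan receptor dectin-1, which signals through a hemITAM, was at 2789.9, 4994 and 10506 normalised reads per kb. Mouse 3 was highest and mouse 1 lowest for Clec7a, a factor of 3.77 between them, and its range overlapped that of Lilra5. Sirpb1a, a signal-regulatory protein that pairs with Tyrobp, was at 5101, 3011 and 3400.1 normalised reads per kb. Clec4n, which encodes the mannan receptor dectin-2, was at 3973, 1721 and 1793, highest in mouse 1. Clec5a, a Tyrobp-coupled lectin, was at 2048, 2675 and 2206 normalised reads per kb and varied by a factor of only 1.31. Cd300ld and Clec9a completed the 8 activating members at 1000 or more normalised reads in every mouse.

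Fcer1g and Tyrobp, the adaptors that most of these receptors need, were far more abundant than any of them. Fcer1g averaged 172236 ± 11488 and Tyrobp 212289 ± 19950.4 normalised reads per kb (SD, n = 3). The third adaptor, Hcst, which NKG2D uses, averaged 1396 ± 252 normalised reads per kb. NKG2D itself, encoded by Klrk1, was at 25.7, 51.2 and 90.0 normalised reads per kb. By adaptor, the 8 members coupled to Fcer1g summed to 38719, 34722 and 35554 normalised reads per kb, of which Clec4b1 held the larger share in every mouse. The 8 coupled to Tyrobp summed to 7154, 5889 and 5619, and the 3 hemITAM lectins to 3896, 5632 and 10997 normalised reads per kb. The Fcer1g-coupled sum exceeded both others in each mouse.

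Other well-known activating receptors were not detected or nearly so. Clec4d, a lectin for mycobacterial glycolipids, was at 0 in every mouse, as were Cd200r4, Treml4 and Trem2, the lipid receptor of microglia and tissue macrophages. Clec4e, which encodes Mincle and lies beside Clec4d, had 1 read in mouse 1 and 0 in both others. The limit that 0 reads set was 3 reads, equal to 2.42, 1.66 and 2.11 on the normalised scale, for counting error alone. Cd300e reached 7.26, 0 and 0 and Pira2 18.5, 0 and 0 normalised reads, detected in mouse 1 alone. Sirpb1c was near the limit of detection in every mouse at 3.23, 1.66 and 2.82 normalised reads.

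Among inhibitory receptors, Klra2, Cd72 and Clec4a2 had similar high levels per kb, and the place of Lilrb4a beside them depended on its exon length. Klra2 encodes Ly49B, the member of the Ly49 family known from myeloid cells, and was at 7822, 9519.5 and 14889.7 normalised reads per kb. Cd72, a lectin-like receptor of B cells and some macrophages that binds the semaphorin Sema4d, was at 10332, 5742 and 14945. Clec4a2, which encodes the ITIM lectin DCIR, was at 10345, 7262 and 12965 normalised reads per kb. The ranges of all 3 overlapped, so their order is not resolved. Lilrb4a, an ITIM receptor of the leukocyte immunoglobulin-like family, was at 45665, 25145 and 42602 normalised reads, or 8736, 4811 and 8150.4 per kb with the exon length found by its symbol. With the shorter length found by its deposited identifier it was at 22947, 12636 and 21408 per kb, above all 3 in every mouse. Clec12a, which dampens responses to uric acid crystals from dead cells, was at 8147, 2996 and 5151 normalised reads per kb. Lair1, the collagen receptor, was at 5193, 3366 and 1992 normalised reads per kb, highest in mouse 1 and lowest in mouse 3. Pirb, which binds MHC class I, was the most even member with a mean of 10 or more normalised reads, at 1034, 998 and 1031 normalised reads per kb. Cd22, Siglecg and Clec12b were at 0 in every mouse, and the first pair are best known from B cells.

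Of the effectors of inhibition, Ptpn6, which encodes the phosphatase SHP-1, was at 16521, 6881 and 11361 normalised reads, and Inpp5d, which encodes SHIP1, at 6070.3, 3315 and 3943. Dok3, a docking protein of inhibitory pathways, was at 2515, 1036 and 1662 normalised reads. Ptpn11, which encodes SHP-2, was uneven at 2172, 4.44 and 160.0 normalised reads, with nearly all of it in mouse 1. Of 6 such genes in the table, 3 were at 1000 or more in every mouse, against 14.7% of all genes. Of 10 genes listed for the activating kinase pathway, 4 reached that level. Among them were Lyn at 34915, 8473 and 19123, Lat2 at 11998, 2776 and 9049.7 and Bcl10 at 15009, 3105 and 2899 normalised reads. A place in that list does not mean that a gene, such as Lyn, serves activation alone. Syk was at 4086, 507 and 3368 normalised reads, lowest in mouse 2. None of these genes was at 0 in every mouse.

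Members in neither class included the receptor transcript with the highest mean per kb. Clec4a3, a relative of DCIR, was at 43602, 18726 and 34608 normalised reads per kb, and in mouse 2, its lowest, Clec4b1 was higher. Lilr4b, the neighbour of Lilrb4a that lacks an ITIM, was at 5304, 4692 and 6250.2 normalised reads per kb. Cd33, a sialic acid receptor whose mouse form differs from the human one in its signalling tail, was at 3033, 2929 and 4462. Clec4a1, another DCIR relative, was at 1987, 1782 and 3004 normalised reads per kb. Of these 4 Clec4a3 differed most between mice, by a factor of 2.33. Siglec1, the sialoadhesin of marginal-zone and other tissue macrophages, was low at 84.7, 0 and 5.64 normalised reads. Fcrl5, Fcrlb, Fcrls and Klri2 were at 0 in every mouse.

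The question set by the classes is whether these macrophages carry more transcript for activation or for inhibition. In read numbers inhibition was ahead: activating members summed to 79107, 72313 and 91005 normalised reads and inhibitory members to 251422, 142096 and 218138. The log2 ratio of activating over inhibitory reads was -1.67, -0.97 and -1.26, below 0 in 3 of 3 mice (exact two-sided sign-flip permutation test, p = 0.25). Longer transcripts collect more reads, however, and per kb of exon the difference was within the spread between mice. Activating members then summed to 49794, 46294 and 52259.9 normalised reads per kb, a mean of 49449 ± 2998, and inhibitory members to 62380.0, 37684 and 62369.6, a mean of 54145 ± 14255 (SD, n = 3). Inhibitory members were ahead in mice 1 and 3 and activating members in mouse 2. The log2 ratio per kb was -0.33, 0.30 and -0.26, with a mean of -0.094 ± 0.20 SE (exact two-sided sign-flip permutation test, p = 0.75, n = 3). With 3 mice this test cannot give a p below 0.25. With the exon length that the annotation gives for the deposited identifier of Lilrb4a, in place of the one for its symbol, the mean was -0.38.

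The sums were also built differently. Clec4b1 held more of the activating sum than any other member, and without it the mean log2 ratio per kb was -1.06. The inhibitory sum was spread over Klra2, Cd72, Clec4a2, Lilrb4a and Clec12a. Without the Klr genes the ratio turned positive, 0.24, and without members that share over 20% of their 50-base stretches with any other gene it was 0.39. The ratio also depended on the members in neither class. Counting Cd33, Clec4a3 and Clec4a1 as inhibitory gave -0.85, and counting Lilr4b and Cd33 as activating gave 0.14. Per kb the activating sum varied little between mice, with an SD of 2998 normalised reads per kb, and the inhibitory sum more, with 14255. Mouse 2 had the low value of the inhibitory sum. This contrast in spread depended on the scale. Divided by the sum of the macrophage markers, the summed reads gave 0.576 ± 0.168 for activating and 1.38 ± 0.139 for inhibitory members (SD, n = 3). On that scale the activating class varied more. By counts, 10 of 20 activating and 11 of 17 inhibitory members were at 10 or more normalised reads in every mouse, where the background is 44.4%. At 1000 or more there were 8 of 20 and 9 of 17, with a background of 14.7%. The median member mean was 63.8 normalised reads per kb for activating and 1021 for inhibitory members. Both medians cover every member, detected or not, and the gap depended on this. When only the 12 activating and 14 inhibitory members averaging at least 10 normalised reads were kept, the log2 ratio of the class medians was -0.44. It was not resolved with 3 mice (exact sign-flip permutation test, p = 0.5).

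**Figure D2:**
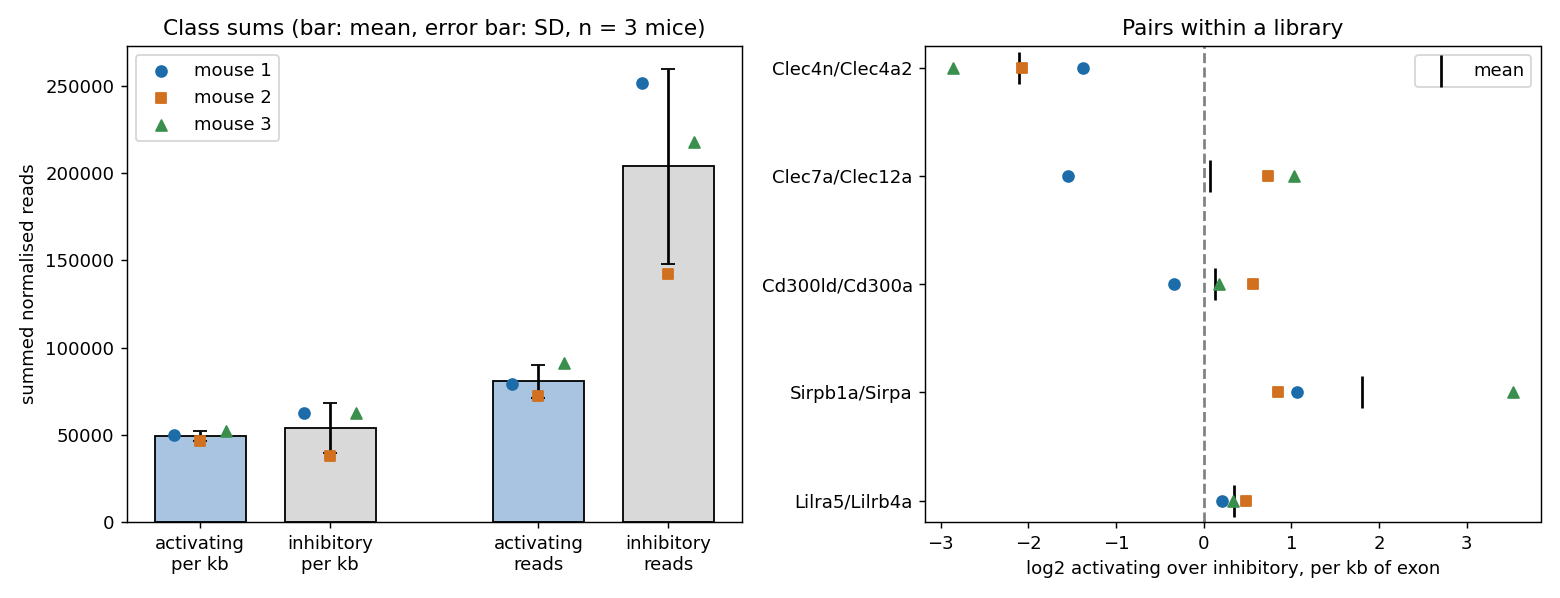
Left, summed normalised reads of the 20 activating and 17 inhibitory members, per kb of exon and as reads, with bars for the mean, error bars for the SD and a point per mouse. Right, log2 ratio of activating over inhibitory member per kb for 5 pairs, a point per mouse and a tick at the mean; the class sums overlap per kb but not in reads, and 2 of the 5 pairs have mice on both sides of 0.

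Pairs from the same family were then compared within each library. Of 12 listed pairs, 6 had both genes in the table, and the others were not analysed here. Dectin-2 was below DCIR in every mouse: the log2 ratio of Clec4n over Clec4a2 per kb was -1.38, -2.08 and -2.85, with a mean of -2.10 ± 0.43 SE (exact sign-flip permutation test, p = 0.25, n = 3). This direction depended on the partner chosen. Clec4b1, an activating lectin of the same stretch, was above Clec4a2 per kb in every mouse. Its levels were 23581, 25626 and 22411, against 10345, 7262 and 12965 for Clec4a2. As reads Clec4b1 was below Clec4a2 in every mouse. In the Sirp family the activating Sirpb1a was per kb above the CD47 receptor Sirpa in every mouse, at a log2 ratio of 1.06, 0.84 and 3.52 and a mean of 1.81 ± 0.86 SE (exact sign-flip permutation test, p = 0.25, n = 3). The wide margin in mouse 3 went with the low Sirpa there, 11988, 8251 and 1453 normalised reads in the 3 mice, and Sirpb1a shares 40.4% of its 50-base stretches with other genes. Without mouse 3 the mean was 0.95. The other activating Sirp members were below Sirpa per kb in every mouse. Sirpb1b was at 0.841, 203 and 12.5 and Sirpb1c at 0.876, 0.452 and 0.766, against 2441, 1680 and 296 for Sirpa. They share 58.0% and 51.9% of their stretches with other loci. As reads Sirpb1a was below Sirpa in mice 1 and 2, and the mean log2 ratio was 0.71 (exact sign-flip permutation test, p = 1). The ratio of dectin-1 to Clec12a went both ways, -1.55, 0.74 and 1.03 on the log2 scale, with a mean of 0.073 ± 0.81 SE (exact sign-flip permutation test, p = 1). Cd300ld, an activating member, and Cd300a, an ITIM receptor for lipids of dying cells, were at 2729, 1407 and 2921 and at 6183, 1706 and 4621 normalised reads. They were not separated per kb, with a log2 ratio of -0.34, 0.56 and 0.18 and a mean of 0.13 ± 0.26 SE (exact sign-flip permutation test, p = 0.75). Lilra5 over Lilrb4a had a log2 ratio of 0.21, 0.48 and 0.33 and a mean of 0.34 ± 0.078 SE (exact sign-flip permutation test, p = 0.25), and its direction depended on the exon length used for Lilrb4a. With the length that the annotation gives for the deposited identifier of Lilrb4a, the mean log2 ratio was -1.05. In the Cd200r family the activating Cd200r4 was at 0 in every mouse. Cd200r1, which restrains myeloid cells on binding CD200, was therefore per kb at least 2289-fold higher in mouse 1, at least 172-fold in mouse 2 and at least 7.13-fold in mouse 3, taken against 3 reads of Cd200r4 per library. No pair can pass 0.05 with 3 mice.

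High and undetected genes lay side by side on chromosome 6. Of the 56 members, 24 lie on chromosome 6, and 10 of these were at 1000 or more normalised reads in every mouse. That share was near the 37.5% of all members at this level, against 14.7% of all genes. In the Clec4 stretch, Clec4a3, Clec4b1, Clec4a2 and Clec4n had means from 2496 (Clec4n) to 32312 (Clec4a3) normalised reads per kb. Their neighbour Clec4a4 was at 1.04, 167 and 0.908 normalised reads per kb, detected above 1 read in mouse 2 alone, and Clec4d and Clec4e were near or at 0. Farther along, Clec12a at 45034, 16561 and 28475 normalised reads is next among the members to Clec12b at 0. Of the killer lectins just before Klra2, Klrd1, the partner chain CD94, was at 399.8, 364 and 1588 and Klrk1 at 25.7, 51.2 and 90.0 normalised reads per kb, both highest in mouse 3, and Klri2 was at 0. Of the natural killer cell markers, Eomes and Cd7 were at 0 in every mouse and the other 7 were not analysed here. The source of the Klrd1 and Klrk1 reads was not tested.

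**Figure D3:**
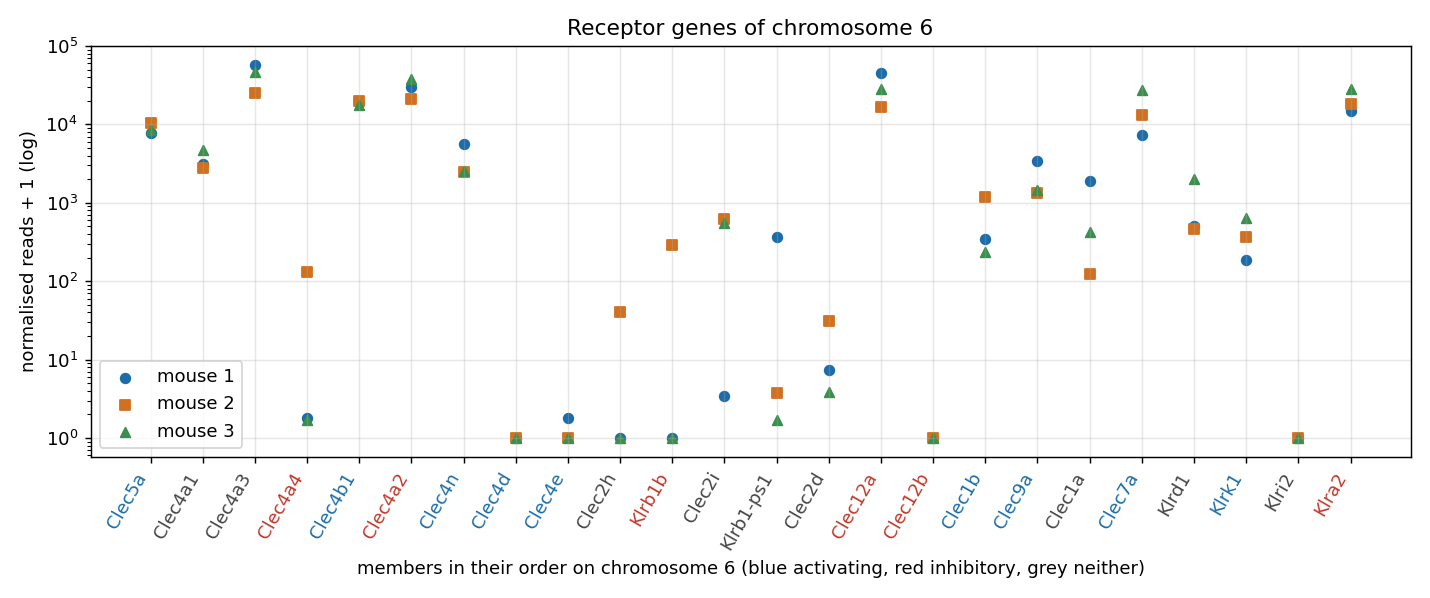
Normalised reads plus 1 on a log axis for the 24 members on chromosome 6, placed in their order along the chromosome and not to scale, with a point per mouse. Neighbours such as Clec4n and Clec4d, or Clec12a and Clec12b, stand far apart: Clec12a was at 45034, 16561 and 28475 and Clec12b at 0.

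Promoters were searched for the core of the PU.1 site, the letters GAGGAA on either strand, the transcription factor PU.1 being needed for macrophages to form. RefSeq promoters of build GRCm38.p6, from 250 bases before to 50 bases after a start, were at hand for 44 members. The motif was in 29 of them, or 65.9%, against 31.3% of the 27025 genes with a promoter. It was in 14 of 18 members at 1000 or more normalised reads in every mouse, against 542 of 1641 genes of the table at that level, or 33.0%. It was in 6 of 10 members at 0 in every mouse, and in 9 of 16 members in between. At 1000 or more, 5 of 7 activating and 6 of 7 inhibitory members held it. A match is a run of letters and not a measured binding site. Printed here are the promoters of the 2 activating and 2 inhibitory members with the highest level per kb among those with a single promoter in the RefSeq table, with each match in capitals. Clec4b1 lies at chr6:123049712-123050011, plus strand, and Lilra5 at chr7:4237504-4237803, plus strand. Klra2 lies at chr6:131247313-131247612, minus strand, and Cd72 at chr4:43454577-43454876, minus strand.
Clec4b1: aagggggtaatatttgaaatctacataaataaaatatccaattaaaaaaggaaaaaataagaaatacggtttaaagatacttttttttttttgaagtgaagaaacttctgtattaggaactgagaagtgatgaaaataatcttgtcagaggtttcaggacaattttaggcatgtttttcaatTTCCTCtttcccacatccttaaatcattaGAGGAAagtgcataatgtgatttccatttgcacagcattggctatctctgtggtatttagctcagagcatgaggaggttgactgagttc
Lilra5: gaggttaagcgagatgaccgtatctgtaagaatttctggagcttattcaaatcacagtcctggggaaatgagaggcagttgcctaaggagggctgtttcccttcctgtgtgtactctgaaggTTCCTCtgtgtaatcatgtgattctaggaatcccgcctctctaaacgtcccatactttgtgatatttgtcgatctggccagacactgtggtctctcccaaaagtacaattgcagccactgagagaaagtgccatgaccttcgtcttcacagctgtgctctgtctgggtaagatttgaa
Klra2: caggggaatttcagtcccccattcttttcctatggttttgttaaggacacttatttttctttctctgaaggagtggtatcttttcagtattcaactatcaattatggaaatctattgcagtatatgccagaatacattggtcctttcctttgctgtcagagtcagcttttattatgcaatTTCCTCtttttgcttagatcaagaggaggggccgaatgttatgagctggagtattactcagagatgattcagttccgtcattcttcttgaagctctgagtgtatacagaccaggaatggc
Cd72: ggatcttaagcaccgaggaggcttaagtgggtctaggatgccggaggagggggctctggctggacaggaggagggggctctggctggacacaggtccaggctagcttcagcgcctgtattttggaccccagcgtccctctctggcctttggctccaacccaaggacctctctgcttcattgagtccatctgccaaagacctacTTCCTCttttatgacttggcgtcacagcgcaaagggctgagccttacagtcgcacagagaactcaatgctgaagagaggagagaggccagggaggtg
Clec4b1 holds the motif once on each strand, and the other 3 hold it on the opposite strand, as TTCCTC.

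The spread between mice was wide for some receptors and small for others. Of 41 members with a mean of 10 or more normalised reads, 19 differed by more than 4-fold between the highest and lowest mouse (1 added to each value), or 46.3%, against 73.4% of all genes at that mean. These were 3 of 12 activating, 6 of 14 inhibitory and 10 of 15 other members. At a mean of 1000 or more it was 7 of 27 members, against 51.9% of all genes, and none of the 8 activating members there. The median factor between mice was 3.62 for members and 29.2 for all genes with a mean of 10 or more. Without mouse 2 the count of members past 4-fold was 8.

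**Figure D4:**
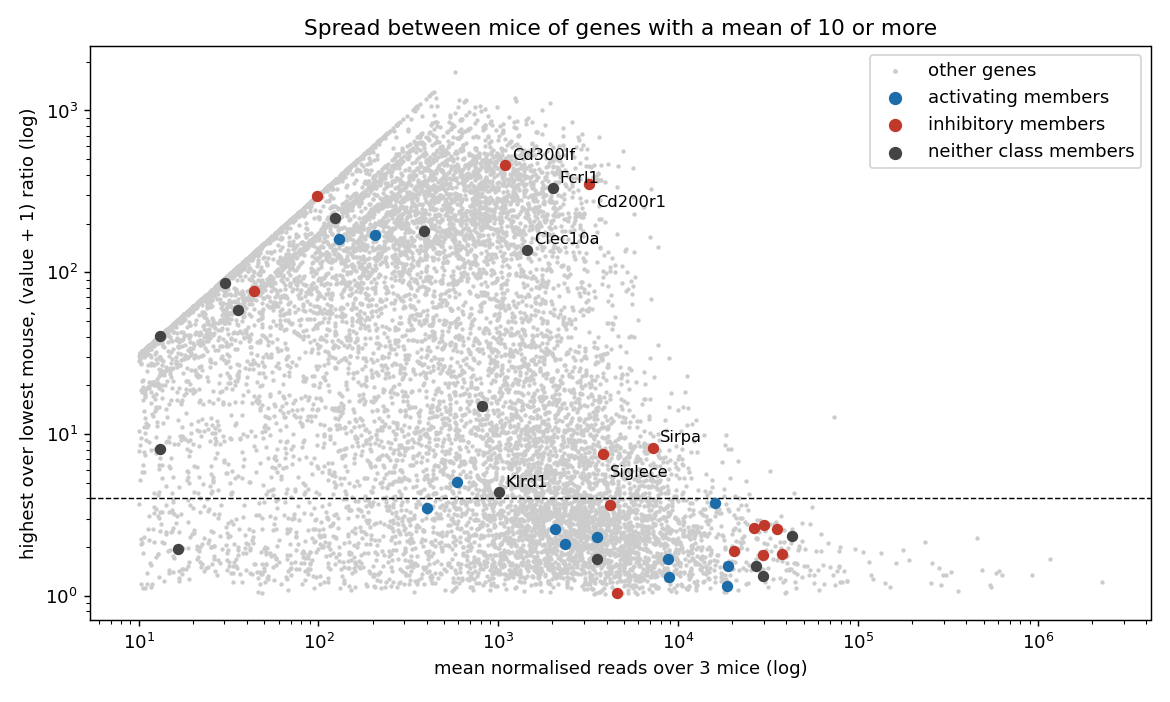
Factor between the highest and lowest mouse, with 1 added to each value, against the mean normalised reads, both on log axes, for 11636 genes with a mean of 10 or more. Each point is a gene, members are coloured by class, and the dashed line marks 4-fold. Named are the 7 members past the line with a mean of 1000 or more, 4 of them inhibitory.

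The widest differences were in receptors that were high in some mice and nearly absent in another. Cd300lf, an ITIM receptor of the Cd300 family, was at 2486, 4.44 and 761 normalised reads, with 8 reads in mouse 2. Cd200r1 was at 9067, 470.1 and 24.7 normalised reads, so that mouse 3 had 35 reads where mouse 1 had 11243. Fcrl1, a receptor best known from B cells, was at 2417, 3579 and 9.87 normalised reads, nearly absent in mouse 3 only. The 95% exact Poisson interval of the Cd200r1 value in mouse 3, for counting error alone, was 17.2 to 34.3 normalised reads. Clec10a, a galactose-type lectin of macrophages and dendritic cells, was at 2659.7, 18.3 and 1637 normalised reads, lowest in mouse 2. Klrb1b, an ITIM receptor of the NKR-P1 family, was at 0, 293 and 0 normalised reads and so was detected in mouse 2 alone. Siglece and Sirpa, both binders of signals of healthy self cells, were at 7088, 941 and 3362 and at 11988, 8251 and 1453 normalised reads. Mouse 2 was lowest for Siglece and mouse 3 for Sirpa. Among lower members, Sirpb1b was at 2.42, 583 and 35.9 and Lilra6 at 2.42, 385 and 1.41 normalised reads, both highest in mouse 2. Clec1a was at 1873, 124 and 426, highest in mouse 1, and Clec2i at 2.42, 612 and 549, nearly absent there. Clec16a was at 0.806, 104 and 1.41, Clec2h at 0, 39.4 and 0 and Clec2d at 6.45, 30.0 and 2.82 normalised reads, again highest in mouse 2.

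Mouse 2 stood apart for the receptors as a set. Among the 27 members with a mean of 1000 or more normalised reads, 19 were lowest in mouse 2, or 70.4%, against 42.6% of all genes at that mean. The sum of the macrophage markers was also lowest in mouse 2, at 203841, 101714 and 144448 normalised reads, as were 5 of the 8 markers, while Mertk, Cx3cr1 and Itgam were lowest in mouse 3. The members' summed reads divided by that sum were 2.22, 2.90 and 3.00, so mouse 2 was not the lowest on this scale. For activating members alone the quotient was 0.388, 0.711 and 0.630, and for inhibitory members 1.23, 1.40 and 1.51. The part of the tubule markers, highest in mouse 2, was not tested. Members at 100 or more in one mouse and under 10 in both others were Clec16a, Clec4a4, Klrb1b and Lilra6 in mouse 2 and Klrb1-ps1 in mouse 1. These 5 are 8.93% of the members, against 10.9% of all genes. Over all genes the share was 2.49% in mouse 1, 5.89% in mouse 2 and 2.56% in mouse 3, where no member qualified. Klrb1-ps1, a pseudogene of the NKR-P1 family, was at 369, 2.77 and 0.705 normalised reads.

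Some members mark other cell types, whose markers were read beside them. Clec9a, the dead-cell receptor of cross-presenting dendritic cells, was at 3421, 1330.3 and 1462 normalised reads. Of 6 dendritic cell markers in the table, Batf3 was at 1269, 1794 and 2456 and Dpp4 at 38.7, 751 and 2228 normalised reads. Xcr1 was at 534, 2.77 and 407 and Kit at 0, 35.5 and 0.705. Flt3 was at 4.84, 0 and 0 and Zbtb46 at 0, 0 and 16.2. The list summed to 1847, 2583 and 5107 normalised reads. Fcrl1 and Cd72 are B cell genes as well. Of the B cell markers, Cd79b was at 227, 3939.8 and 6359 and Ebf1 at 4.03, 337 and 0.705 normalised reads, which sum to 231, 4277 and 6360.2, and the other 5 were not analysed here. Fcrl1 and Ebf1 were highest in mouse 2 and lowest in mouse 3, while Cd79b was highest in mouse 3. Clec1b, the podoplanin receptor of platelets, was at 342, 1196 and 235 normalised reads. The platelet gene Itga2b was at 0 in every mouse, while Pf4 was at 6359.8, 6796 and 5289.6, and the endothelium and platelet list summed to 6892, 6930.1 and 8371. Of the monocyte markers, 4 were in the table. Ccr2 was at 29145, 8939 and 12215 and Ly6c2 at 1069, 2.77 and 0.705 normalised reads. Plac8 was at 465, 0 and 0 and Vcan at 0.806, 0 and 0. The 4 summed to 30679.7, 8941 and 12216 normalised reads, nearly all of it Ccr2. The 3 plasmacytoid dendritic cell markers in the table summed to 4597, 7618 and 2371 normalised reads. Of these, Tcf4 was at 3297, 5029 and 1426, Bst2 at 1298, 2590 and 944 and Runx2 at 1.61, 0 and 1.41. Of the 2 neutrophil markers, Csf3r was at 19.4, 3.33 and 0 normalised reads and S100a9 at 0 in every mouse. The mast cell gene Ms4a2, alone of its list in the table, was at 0 in every mouse. The part of any of these cells in the members' values was not tested.

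Ligands of the receptors were in part detected in the same libraries. Pirb and Ly49 receptors bind MHC class I, whose light chain gene B2m was at 710943, 525450.4 and 653279 normalised reads. Cd47, the ligand of Sirpa, was at 15853, 6532 and 11922, and Sema4d, the ligand of Cd72, at 179, 284 and 758 normalised reads. Cd200, the ligand of Cd200r1, and Ulbp1, a ligand of NKG2D, were at 0 in every mouse. H60b, also in the ligand list, was at 0.806, 37.2 and 17.6 normalised reads. Of 16 ligand genes in the table, 7 were at 1000 or more in every mouse, against 14.7% of all genes. Sialic acid, which Siglecs bind, is attached by sialyltransferases, of which St3gal6 was at 20992, 18276 and 26338 and St8sia4 at 21919, 3848 and 17183 normalised reads. The sialidase gene Neu1, which acts in the other direction, was at 1303, 630.5 and 3596. Both transferases passed 1000 in every mouse, alone among 13 genes for sialic acid, where 14.7% of all genes were at 1000 or more.

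Some values cannot be assigned to 1 gene with certainty, since close copies share sequence. Of each member's 50-base transcript stretches, the share that also occurs in a gene at another locus was 93.0% for Pira2, 82.1% for Cd300lh and 58.0% for Sirpb1b. For Sirpb1c it was 51.9%, for Sirpb1a 40.4%, for Pirb 34.0%, for Lilra6 31.3%, for Lilrb4a 26.1% and for Lilr4b 24.1%. Lilrb4a and Lilr4b share it mostly with each other. Cd72 shared none with another locus but 36.7% with the overlapping gene Tesk1. Lilrb4a also shared 34.2% with the overlapping gene Gm49339, which brought its share with any other gene to 47.2%. Lilr4b shared 12.5% with Gm49339, and Klrb1b 25.5% with the overlapping gene Gm44511. Clec4a3, Lilra5 and Sirpa shared none.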

How the data were processed

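RNA-seq libraries of sorted kidney macrophages from 3 mice were made with SMART-seq V4 amplification, 10 ng of cDNA and 8 PCR cycles, per the labels' protocols, a kit without molecular identifiers, so intervals and floors cover counting error only. The deposited values are a normalised signal per gene. Per the submitters' processing notes, HTSeq 0.5.4 and DESeq 1.18.0 were used, with build mm9; the aligner, annotation, strand setting and row filter were not stated in any source read. Every column has a lowest value of exactly 1, and after this 1 was subtracted 100% of values were whole multiples of a step (tolerance 0.05 of a step), which gave the reads. Among 12562 genes expected at 5 or more reads per library, counts of 98.0% varied by more than Poisson sampling, and no library was counted as a repeat.

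Exon lengths (union of exons) came from GENCODE M21, by gene identifier for 54 members and by symbol for Lilrb4a and Lilr4b, and no genome coordinates were taken from it. Stretches of 50 bases were compared among its transcripts. Ratios within a library had a pseudocount of 1 for pairs and were tested with an exact sign-flip test. The labels name separate mice. The named genes were the 6 highest per kb in each class (4 in neither class), the pairs, the 5 widest spreads and members near the minimum of 10. Added to them were the absent genes of each list and the 3 highest of some lists. The 3 highest were not all named for the ligands or for the macrophage, kidney tubule, T cell and endothelium or platelet markers. Genes named outside this rule were chosen after their values were seen. So were the subtraction of the 1, the length of Lilrb4a by symbol, the rule of 100 or more reads in 1 mouse, the mean of 1000 in counts between mice, and the PU.1 motif. Rae1 and Anxa1, wrong entries, were dropped from the ligand list after the files were read. The members, classes and lists were chosen with earlier results of these data known. The reads and factors were tested on simulated data. Alternatives are given in the closing section. Python 3.11.15, numpy 2.4.6, pandas 2.3.3, scipy 1.17.1 and matplotlib 3.10.9 were used.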

Additional observations from a re-analysis of the deposited data

How the results depend on the processing

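No paired analysis was possible because there is a single group. The mean log2 ratio of activating over inhibitory receptors per kb, -0.094, ranged from -0.29 to 0.021 when 1 mouse was left out, the last of these without mouse 1. With the exon length of the deposited identifier of Lilrb4a it was -0.38; the length by symbol was chosen after both values were seen. It was 0.24 without the Klr genes. Among alternatives chosen after seeing the data, it was 0.39 without members that share over 20% of their stretches with any other gene, 0.024 where only other loci counted, and 0.14 with Lilr4b and Cd33 as activating. It stayed negative under the other 7 settings, from -1.30 as reads to -0.31 without the hemITAM lectins. Among these it was -0.85 with Cd33, Clec4a3 and Clec4a1 counted as inhibitory, a setting also chosen after seeing the data. The cause was not tested. Leaving out 1 mouse gave 8 (without mouse 2) to 15 members past 4-fold in place of 19, a count that uses fewer values, and 30 to 31 members at 10 or more in place of 29. The other settings moved these counts by less than 1.5 times.

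For Clec7a over Clec12a the mean log2 ratio turned to -0.99 as reads, -0.49 per kb of the longest transcript, -0.26 without mouse 2 and -0.40 without mouse 3. For Cd300ld over Cd300a it turned to -0.71 as reads and -0.080 without mouse 2. For Lilra5 over Lilrb4a it turned to -0.97 as reads, -0.13 per kb of the longest transcript and -1.05 with the length of the deposited identifier. With 1 mouse left out the first of these ranged from -0.40 to 0.88 and the second from -0.080 to 0.37. The other 27 of 36 pair values kept their sign. Low members, with a few reads, are limited by depth.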
